A study of Mus musculus with 8 samples.

Results

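Promoter methylation was examined at 4 genes of imprinted domains whose control regions carry methylation on the paternal chromosome: *H19*, *Meg3*, *Rasgrf1* and *Dio3*. The members were every promoter site listed under these gene symbols, 142 cytosines in 4 promoters, out of 203645 cytosines in the promoters of 9224 genes. The material was GS cells (germline stem cells), a culture of spermatogonia that keeps stem cell activity, established from CD9+ spermatogonia of mature testes. All lines had a B6 background and a genotype given as wild type. The paper calls the sperm used for ICSI wild type, but took it from testes of B6 mice that carry an *Egfp* transgene. Whether the lines carry this transgene is not stated in the paper's text. The 4 control-F1 lines (29, 37, 44 and 45) came from mice born after natural mating, and the 4 ICSI-F1 lines (11, 17, 20 and 21) from mice born after intracytoplasmic sperm injection (ICSI). Each line gave 1 library of reduced representation bisulfite sequencing (RRBS), and the age of the donors was not given in the sources used here. The line numbers recur among those of F1 mice in the paper's supplement. That each line came from a single mouse is not stated outright. The comparison asked whether ICSI altered DNA methylation in the germ cells of the offspring.

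*H19* encodes a maternally expressed noncoding RNA next to the growth factor gene *Igf2*. *Meg3* is a maternally expressed noncoding RNA and *Dio3*, an enzyme that inactivates thyroid hormone, is a paternally expressed gene of the same imprinted domain. *Rasgrf1* encodes an exchange factor for Ras and Rac proteins and is expressed mainly from the paternal copy. In the male germ line the control regions of these domains acquire methylation on both chromosomes. Those of *H19* and *Rasgrf1*, and the germline control region upstream of *Meg3*, lie farther from the gene starts than the windows measured here, so the levels below are those of the promoters and not of the control regions. The *Meg3* promoter is itself known as a secondary differentially methylated region of somatic tissues.

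The methylation level of a cytosine was the percentage of its reads that kept a cytosine after bisulfite conversion, and a promoter's level was the unweighted mean over its sites. A promoter was the 1 kb upstream of the listed start, and distances below count bases upstream of that start. RRBS cuts DNA with MspI at CCGG, so that fragments begin and end at these sequences and the cytosines of the cut ends are rebuilt when the library is made. Of the 142 member cytosines, 26 lay in a CCGG and 116 did not, and levels are given for all sites or outside CCGG, as stated. The lines also fall into 2 library sets by the way their labels were filled in, set 1 with lines 29, 37, 11 and 17 and set 2 with lines 44, 45, 20 and 21, which hold 2 lines of each group. The median depth of a promoter site was 41 to 82 reads per line after the deposited scaling had been undone. Single levels of the members rested on 10 to 186 reads. Neighbouring cytosines on 1 strand are often read by the same fragments and are therefore not independent. Of 20 germ cell genes known for promoters unmethylated in germ cells, 11 had sites, with mean levels outside CCGG of 2.23% to 18.4% (median 3.74%). The highest was *Wfdc15a*, at 9.16% to 53.3% by line.

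The stretches below carry the contrasts described afterwards, so they are printed first. They are from the plus strand of GRCm38 (mm10), with each CpG that had a level on at least 1 strand in capitals. A capital pair written as cCGg is the CpG of an MspI site. The low stretch of *H19* is named for its cytosines 48 to 100 bp upstream. The CpG of its start-side CCGG was higher in the mean of the lines. It was at 31.0% on the plus strand (22 bp upstream) and 97.9% on the minus strand (23 bp upstream).
*H19*, chr7:142578159-142578249 (22 to 100 bp upstream, the low stretch, with a CCGG near each end): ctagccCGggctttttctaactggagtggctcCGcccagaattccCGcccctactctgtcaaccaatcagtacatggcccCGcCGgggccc
*H19*, chr7:142578762-142578871 (625 to 722 bp upstream, the methylated stretch): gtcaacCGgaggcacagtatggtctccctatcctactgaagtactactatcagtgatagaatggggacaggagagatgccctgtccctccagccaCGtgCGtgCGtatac
*Meg3*, chr12:109540585-109540651 (356 to 410 bp upstream, with 2 CCGG): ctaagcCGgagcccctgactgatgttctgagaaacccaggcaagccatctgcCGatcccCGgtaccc
*Meg3*, chr12:109540914-109540970 (37 to 81 bp upstream, raised in 1 line): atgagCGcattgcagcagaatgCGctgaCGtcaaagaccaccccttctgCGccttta
*Rasgrf1*, chr9:89908912-89909141 (773 to 990 bp upstream, with 2 CCGG): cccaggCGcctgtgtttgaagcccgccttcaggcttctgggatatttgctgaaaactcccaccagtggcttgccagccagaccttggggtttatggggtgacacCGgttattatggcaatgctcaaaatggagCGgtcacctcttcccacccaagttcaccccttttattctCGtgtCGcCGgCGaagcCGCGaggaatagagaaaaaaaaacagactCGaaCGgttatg
*Dio3*, chr12:110278307-110278400 (around the cytosines 686 to 741 bp upstream): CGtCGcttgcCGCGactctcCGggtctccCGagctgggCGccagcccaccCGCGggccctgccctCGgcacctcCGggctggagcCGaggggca
*Dio3*, chr12:110279024-110279062 (around the cytosine 24 bp upstream): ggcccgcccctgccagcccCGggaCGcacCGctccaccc

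Over all their sites, with CCGG included, the 4 promoters fell at different levels, and none differed between the groups beyond the spread of the lines. *H19* (ENSMUSG00000000031) had promoter means of 36.9%, 44.7%, 40.3% and 39.2% in control-F1 lines 29, 37, 44 and 45, and of 37.2%, 39.5%, 43.5% and 39.9% in ICSI-F1 lines 11, 17, 20 and 21. Every line lay near the others, and the groups overlapped. The group means were 40.3% ± 3.28 (SD, n = 4) and 40.02% ± 2.64 (SD, n = 4), a difference of −0.258 percentage points (p = 0.857 by exact permutation of the lines, two-sided, with 70 arrangements). *Meg3* (ENSMUSG00000021268) had 14.1%, 40.3%, 11.1% and 15.0% in the control-F1 lines and 9.99%, 27.7%, 14.8% and 19.9% in the ICSI-F1 lines. Line 37 stood far above the other control-F1 lines, and line 17 was the highest ICSI-F1 line. The *Meg3* means were 20.1% ± 13.5 (SD, n = 4) and 18.1% ± 7.59 (SD, n = 4), with a difference of −2.03 percentage points (exact permutation test, p = 0.8). Without line 37 the control-F1 mean was 13.4% and the difference was 4.68 percentage points.

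*Rasgrf1* (ENSMUSG00000032356) had promoter means of 2.39%, 3.06%, 6.05% and 5.87% in the control-F1 lines and 3.84%, 2.09%, 5.12% and 5.09% in the ICSI-F1 lines. *Dio3* (ENSMUSG00000075707) had 2.32%, 3.01%, 5.37% and 4.29%, and 2.52%, 3.46%, 4.72% and 4.43%. In both promoters every line of library set 2 was above every line of library set 1, as at 27.7% of all promoters. Outside CCGG the sets overlapped in all 4 member promoters, while 23.7% of all promoters still had that order. The *Rasgrf1* means were 4.34% ± 1.89 and 4.04% ± 1.42 (SD, n = 4 each), a difference of −0.308 percentage points (exact permutation test, p = 0.743). The *Dio3* means were 3.75% ± 1.36 and 3.78% ± 1.00 (SD, n = 4 each), a difference of 0.0323 percentage points (exact permutation test, p = 1). All 4 adjusted p-values over 9224 promoters were 1 (Benjamini-Hochberg). The smallest p that 4 lines against 4 allow is 0.0286, and 1.46% of all promoters had an exact p under 0.05, against 0 of these 4. Within the library sets the differences were −2.48 (set 1) and 1.96 (set 2) for *H19*, −8.35 and 4.29 for *Meg3*, 0.241 and −0.858 for *Rasgrf1*, and 0.322 and −0.257 for *Dio3*, in percentage points. The sign thus turned between the sets at each gene.

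**Figure D1:**
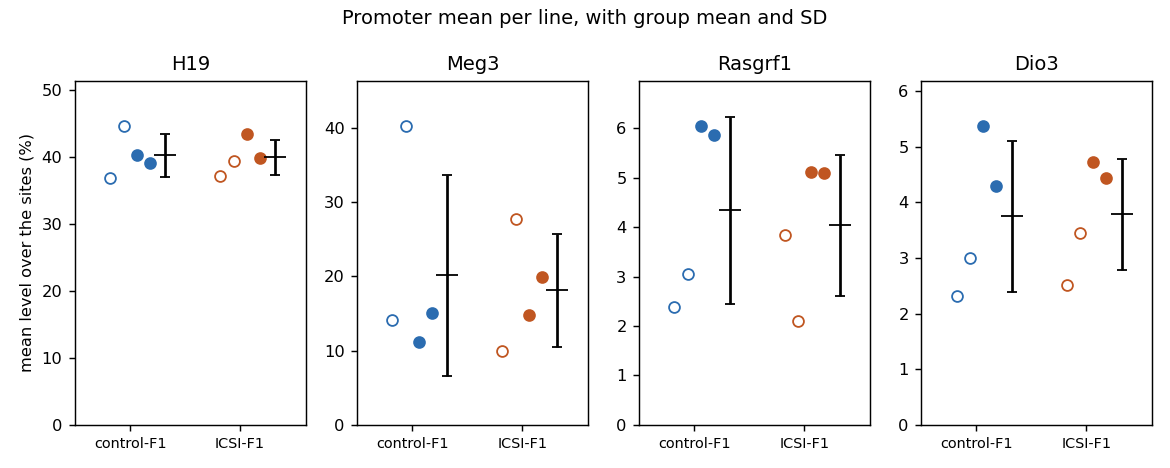
Mean methylation level over the sites of each promoter (%, each panel with its own axis from 0), 1 point per line, open for library set 1 and filled for library set 2, with the group mean and SD beside them. Control-F1 line 37 is the high point in *Meg3* at 40.3%, and the filled points lie above the open ones in *Rasgrf1* and *Dio3*.

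The *H19* promoter held a methylated and an unmethylated stretch. Its 13 sites lay on chromosome 7 between 142578165 and 142578865 (mm10), 22 to 722 bp upstream of the start at 142578143 on the minus strand, 9 in a CpG island shore and 4 in a shelf. All lay outside any GENCODE gene. The 7 cytosines from 48 to 100 bp upstream formed an unmethylated block with site means of 2.11% to 5.86%, and no single level there passed 18.2%. The 4 cytosines from 625 to 722 bp upstream, all on the plus strand, formed a methylated block with site means of 87.1% to 95.6%. With CCGG included, the gap between the blocks, from 142578243 to 142578768, held no site for 525 bp, but both bounding cytosines were in CCGG. Outside CCGG, each of the 8 lines changed side of 50% once along the promoter, between 142578240 and 142578857. The junction could not be placed within this 617-bp stretch from the cytosines outside CCGG. Of 5095 promoters with at least 9 sites outside CCGG, 10 (0.196%) had at least 3 methylated and at least 3 unmethylated sites, and *H19* was 1 of them. These limits were set from the counts of *H19* itself, so its own place among the 10 was fixed by them.

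Outside CCGG, the *H19* cytosines of the upstream stretch averaged 88.8%, 88.4%, 96.9% and 92.5% in the control-F1 lines and 85.4%, 92.6%, 100% and 91.4% in the ICSI-F1 lines. The groups covered the same range, with means of 91.6% ± 3.98 and 92.3% ± 6.00 (SD, n = 4 each). In the stretch near the start the 6 cytosines outside CCGG averaged 1.52%, 10.9%, 2.995% and 2.09% in the control-F1 lines and 0%, 0%, 7.30% and 3.90% in the ICSI-F1 lines. Line 37 was the highest, ahead of ICSI-F1 line 20. The largest group difference of the promoter was at 142578191, 48 bp upstream on the plus strand, with 9.09%, 18.2%, 4.82% and 8.33% against 0%, 0%, 2.70% and 3.74%. Every ICSI-F1 line was below every control-F1 line there, as at 0.679% of all sites, and it was the only member site with that order. The difference was −8.50 percentage points (logistic model, adjusted p = 0.707), and the level of line 37 rested on 12 reads. On the other strand of the same CpG, at 142578192, the means ran the other way, 1.62% ± 1.90 against 3.98% ± 5.05 (SD, n = 4 each).

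At the start-side end of the *H19* promoter, 1 CpG of a CCGG stood apart from its neighbours. Its minus strand cytosine (142578166, 23 bp upstream) was at 97.7%, 100%, 96.3% and 100% in the control-F1 lines and 96.4%, 97.0%, 95.8% and 100% in the ICSI-F1 lines, with 16 to 47 reads per line. Its plus strand cytosine (142578165) was at 31.9%, 51.3%, 17.6% and 19.8%, and at 33.3%, 45.5%, 32.3% and 15.97%, with 21 to 119 reads. The strands of this CpG differed by 66.9 percentage points in the mean of 8 lines, while those of the 3 other *H19* CpGs read on both strands differed by at most 3.06.

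**Figure D2:**
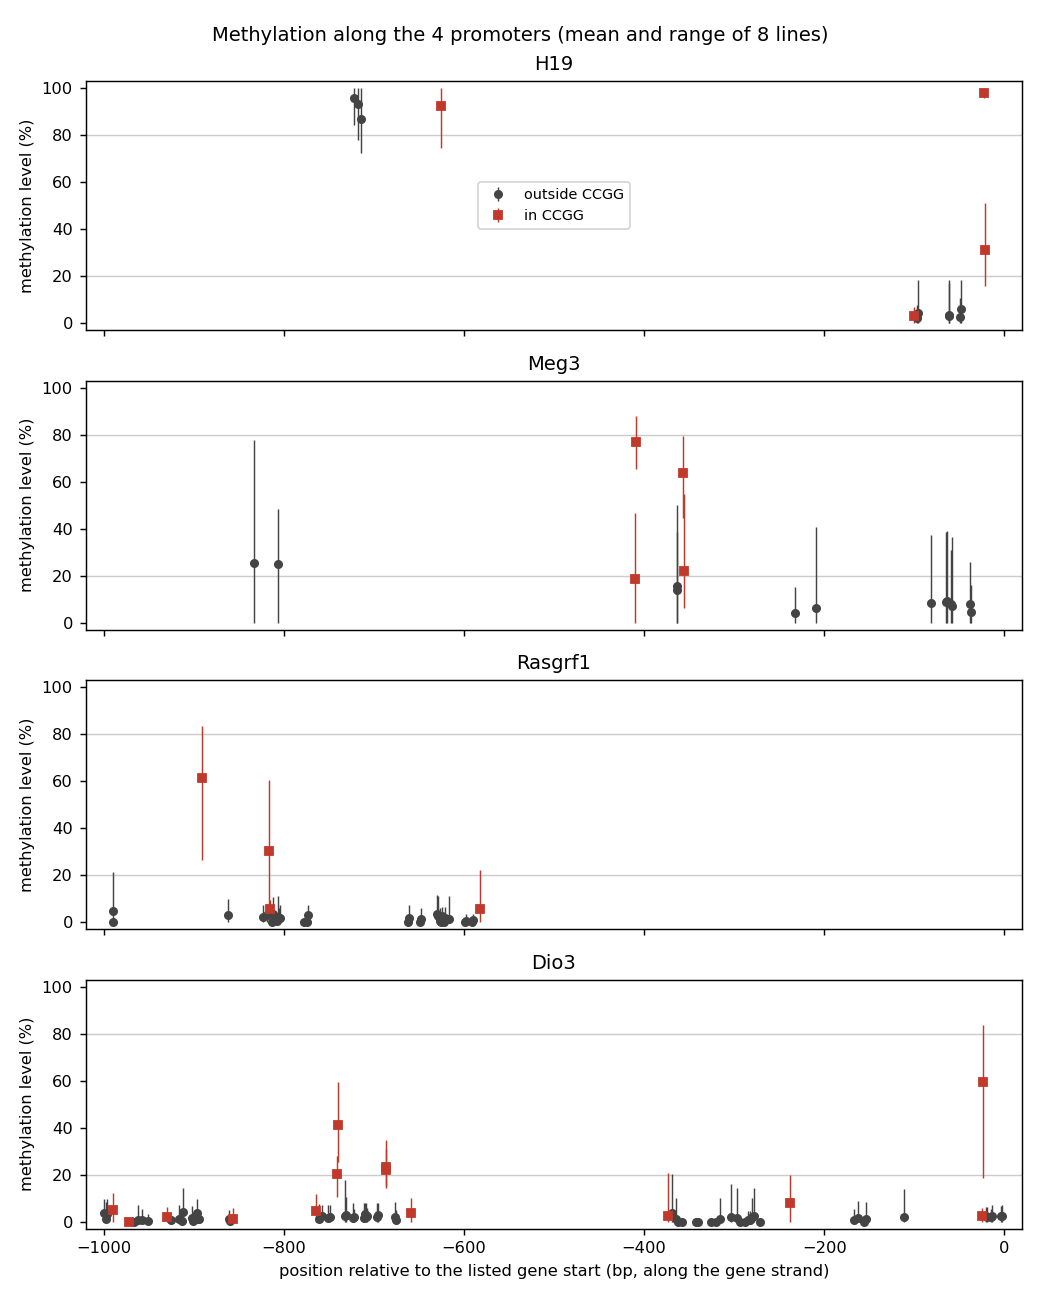
Methylation level (%) of each member cytosine against its position upstream of the listed gene start (bp), as the mean of 8 lines with a bar from the lowest to the highest line, and red squares for cytosines in CCGG. Grey lines mark the 20% and 80% limits of the classes. *H19* is high 625 to 722 bp upstream and low 48 to 100 bp upstream, and in *Rasgrf1* and *Dio3* each cytosine with a mean of 20% or more is a red square.

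*Meg3* differed among lines more than the other 3 promoters. Its 17 sites lay on chromosome 12 between 109540168 and 109540964, 37 to 833 bp upstream of the start at 109541001 on the plus strand, all in a CpG island shelf and outside any GENCODE gene. The SD of its promoter mean over the 8 lines was 10.2 percentage points, and 97.1% of 1202 promoters with at least 5 sites and a mean within 10 percentage points had a smaller SD. The sites fell into 4 runs separated by gaps of over 100 bp, and the level outside CCGG in each run is given by line.

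The run 806 to 833 bp upstream had 30.6%, 47.7%, 0% and 11% in the control-F1 lines and 10.9%, 63.0%, 0% and 36.9% in the ICSI-F1 lines. Lines 17, 37, 21 and 29 were raised, and lines 44 and 20, both of library set 2, had no methylated read. At its outer cytosine (109540168), which had the largest group difference of the promoter, line 17 was at 77.5% (95% Wilson interval 59.1% to 88.2%, 30 unscaled reads) and line 20 at 0% (interval up to 6.53%, 55 unscaled reads). Such intervals cover counting error only, since reads carried no molecular identifiers. The group difference was 12.3 percentage points (logistic model, adjusted p = 0.881), with SDs of 21.5 and 34.3. The run 356 to 410 bp upstream had 9.88%, 44.4%, 1.79% and 7.13% at its 2 cytosines outside CCGG in the control-F1 lines, and 0%, 26.8%, 3.76% and 24.2% in the ICSI-F1 lines. Lines 37, 17 and 21 were again the 3 highest. The run 209 to 232 bp upstream had 27.8% in line 37, 8.51% in line 20, 4.17% in line 11 and 0% in the other 5 lines, with 10 to 39 reads per site.

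The run nearest the *Meg3* start, 37 to 81 bp upstream, had 2.13%, 32.03%, 4.95% and 5.82% in the control-F1 lines and 0.903%, 7.65%, 8.33% and 0% in the ICSI-F1 lines. Line 37 was raised at each of its 7 cytosines, at 15.9% to 39.0%, and lines 17 and 21, raised farther upstream, were not raised there. The group means were 11.2% ± 14.0 and 4.22% ± 4.38 (SD, n = 4 each), a difference of −7.01 percentage points that was −0.0776 without line 37. The cytosines 58 and 59 bp upstream, those of 1 CpG, lie in TGACGTCA, the palindromic cAMP response element, at chr12:109540939-109540946. This motif, read on either strand alike, was present in 588 of 32851 promoter sequences of RefSeq (1.79%, GRCm38, 300 bases around the start), and in 1 of the 2 listed for *Meg3*. By class, the outermost run was intermediate, with site means of 24.8% and 25.2%. The 11 cytosines outside CCGG from 364 bp upstream to the start-side end were unmethylated, with site means of 4.01% to 15.5%. In the mean of the 8 lines, the junction between them lay in a 442-bp stretch without cytosines outside CCGG, from 109540195 to 109540637. By run means, lines 44, 45, 11 and 20 were under 20% on both sides of this stretch. Lines 37, 17 and 21 were above 20% on both sides, and line 29 alone fell below 20% across it, from 30.6% to 9.88%. Outside CCGG the level of a line crossed 50% only in line 17, within the outermost run, and in line 37, which was at 50% at 109540638.

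The level of line 37 across promoters was examined too. Among 6489 promoters with at least 5 sites outside CCGG and any methylated read, it was the highest of the 8 lines at 6.26%, compared with 32.5% for line 44 of library set 2. Of the other lines of its own library set, line 17 was highest at 3.48%, line 29 at 1.91% and line 11 at 1.46%. Line 37 exceeded the median of the other lines by over 20 percentage points at 4 promoters, of which *Meg3* was 1. By the same measure the other lines did so at 3 (line 17) to 42 (line 21) promoters, so this count was among the lowest. The depth of line 37 was the lowest of the 8, with a median of 41 reads. The part of either measure in the *Meg3* levels was not tested. In bulk DNA, a low level in every cell and a high level in a few cells cannot be told apart.

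**Figure D3:**
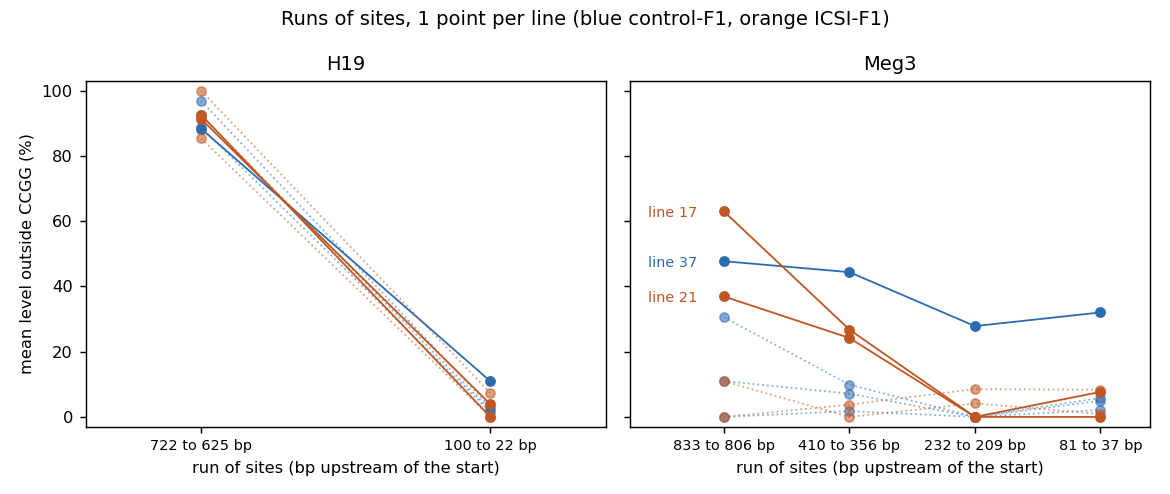
Mean level outside CCGG (%) of each run of sites in *H19* and *Meg3*, with the runs ordered toward the gene start and named by their bounds, 1 point per line, blue for control-F1 and orange for ICSI-F1. Solid lines join lines 37, 17 and 21. In *Meg3* lines 17, 37 and 21 are the highest in the outermost run, and in the run nearest the start line 37 alone is high, at 32.03%.

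The *Meg3* CpGs in CCGG again had unlike strands. At the CpG of 109540591, the plus strand cytosine was at 18.8% and the minus strand cytosine at 77.0% in the mean of 8 lines. The minus strand cytosine was high in every line, between 65.5% and 88.0%, and the plus strand one ranged from 0% in line 11 to 46.7% in line 37. At the CpG of 109540644 the order was reversed, with 63.6% on the plus and 22.1% on the minus strand. The lower strand of each CpG had its 3 highest values in lines 37, 17 and 21, the lines that were raised at the neighbouring CpG outside CCGG. The 4 *Meg3* CpGs outside CCGG read on both strands differed by at most 3.48 percentage points between strands.

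*Rasgrf1* was unmethylated outside CCGG in all 8 lines. Its 35 sites lay on chromosome 9 between 89908918 and 89909326, 582 to 990 bp upstream of the start at 89909908 on the plus strand, all in a CpG island and outside any GENCODE gene. The 31 cytosines outside CCGG had site means of 0% to 4.82%, and line means of 0.214% to 2.14%. At 9 sites no line had a methylated read, which with the reads of all lines summed allows levels of up to 0.815% to 1.67%. Outside CCGG the whole promoter was thus 1 block with no junction.

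The raised *Rasgrf1* cytosines were both in CCGG, and their levels followed the library set. The cytosine 891 bp upstream (89909017) was at 50.9%, 26.3%, 75.5% and 83.3% in the control-F1 lines and at 47.1%, 53.3%, 71.0% and 82.4% in the ICSI-F1 lines. The set 1 lines were at 26.3% to 53.3% and the set 2 lines at 71.0% to 83.3%, in both groups. The cytosine 816 bp upstream (89909092) was at 10.3%, 6.98%, 45.5% and 52.9%, and at 8.33%, 9.09%, 60.6% and 48.3%. Here the sets were farther apart, 8.69% against 51.8% in the mean, while the group means were 28.9% and 31.6%. The other strand of that CpG (89909093) was at 1.69% to 9.27%. The largest group difference of the promoter was −5.66 percentage points at 89909326, also in a CCGG, with means of 8.34% ± 9.62 and 2.68% ± 5.36 (SD, n = 4 each) and 11 to 24 reads per line (logistic model, adjusted p = 0.821).

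*Dio3* had the most sites, 77 on chromosome 12 between 110278069 and 110279065, 3 to 999 bp upstream of the start at 110279068 on the plus strand, all in a CpG island. The 17 outermost sites lie in an exon of *Dio3os* (110277983 to 110278172), the divergent noncoding RNA on the minus strand, and 9 of them in *Mir1247* (110278048 to 110278129), which encodes a microRNA. The 63 cytosines outside CCGG had site means of 0% to 4.10% and line means of 0.148% to 2.88%, with no single level above 20.5%. At 11 of these sites no line had a methylated read. Cytosines within *Dio3os*, within *Mir1247* and beside the *Dio3* start were alike unmethylated, and outside CCGG the promoter was 1 block.

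All 5 intermediate *Dio3* cytosines were in CCGG. The CpG at 110278327 had the only member site past a 20-point rule, a difference between group means of over 20 percentage points with every ICSI-F1 line on the same side of the control-F1 mean. The threshold is the study's, but the second condition is a reading made here of its removal of sites with reversed samples, so the sites selected need not be those of the study. Its minus strand cytosine (110278328, 740 bp upstream) was at 25.6%, 28.8%, 38.5% and 25.3% in the control-F1 lines and at 50%, 57.9%, 42.6% and 59.4% in the ICSI-F1 lines. Every ICSI-F1 line was above every control-F1 line, with line 20 and line 44 nearest to each other. The means were 29.6% ± 6.14 and 52.5% ± 7.74 (SD, n = 4 each), 22.9 percentage points apart. The logistic model gave an adjusted p of 0.702 over all sites. Among all sites, 0.274% were past this rule in this direction and 0.0506% in the other, against 1 and 0 of the 142 members. In either direction, 0.94% of all cytosines in CCGG passed it, 0.333% of those in CpG islands, and 0.197% of cytosines outside CCGG. Of the members, 1 of 26 in CCGG and 0 of 116 others did. Complete separation with ICSI-F1 higher occurred at 0.427% of all sites and at this 1 member site.

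The other cytosines near the *Dio3* site did not share its difference. The plus strand cytosine of the same CpG (110278327) was at 16.6% ± 6.26 and 23.6% ± 5.50 in the control-F1 and ICSI-F1 groups (SD, n = 4 each), and the groups overlapped. With both strands summed the CpG was not past the rule. The nearest sites, 110278319 and 110278336, both outside CCGG, had means over 8 lines of 2.21% and 2.46% and no level above 17.6%. The next CCGG toward the start had means of 23.3% at 110278381 and 21.8% at 110278382, with group differences of −0.506 and 2.43 percentage points. At the cytosine 24 bp from the start (110279044) the levels were 35.1%, 18.4%, 78.3% and 83.3%, and 52.6%, 47.5%, 83.75% and 77.2%. As in *Rasgrf1*, the set 2 lines were all above the set 1 lines, with 80.7% against 38.4%, and the other strand (110279043) was at 2.46% in the mean of 8 lines.

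**Figure D4:**
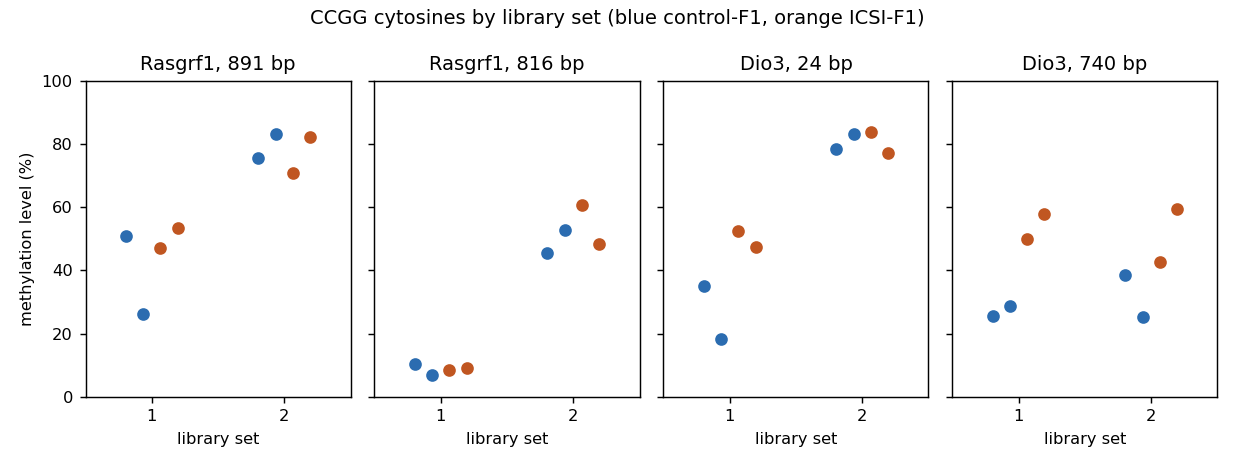
Methylation level (%) of 4 cytosines in CCGG by library set, 1 point per line, blue for control-F1 and orange for ICSI-F1, with the distance upstream of the start in each title. The first 3 separate the sets, and the cytosine 740 bp upstream of *Dio3* separates the groups, at 25.3% to 38.5% and 42.6% to 59.4%.

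Across the 4 promoters, the cytosines with a mean level of 20% or more were 13 of the 26 in CCGG and 5 of the 116 elsewhere, namely 3 in the *H19* upstream stretch and 2 in the outermost *Meg3* run. Over all sites of the table, 49.4% of cytosines in CCGG and 2.00% of the others had a mean level of 20% or more. In CpG islands, where all *Rasgrf1* and *Dio3* sites lie, the shares were 49.1% and 0.0581%. Of CpGs read on both strands, 6 of 7 members in CCGG differed by over 20 percentage points between strands and 0 of 34 others did, against 50.9% and 0.0158% in the whole table. Every line of library set 2 exceeded every line of set 1 at 4 of 26 member cytosines in CCGG (8.08% of all such sites) and at 2 of 116 others (4.51% of all such sites). All 4 of those in CCGG were the *Rasgrf1* and *Dio3* cytosines 891, 816, 815 and 24 bp upstream. The part of the cut ends in these levels was not tested.

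**Figure D5:**
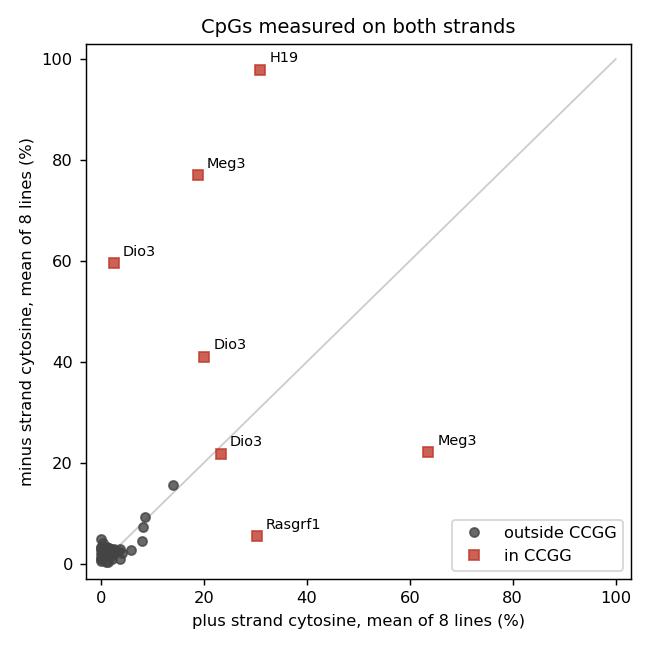
Mean level over 8 lines (%) of the plus and the minus strand cytosine of each member CpG read on both strands, with red squares for CpGs in CCGG and a grey line where the strands are equal. The 34 CpGs outside CCGG lie along that line, and 6 of the 7 in CCGG lie over 20 percentage points from it.

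Leaving out CCGG lowered the promoter means and left the group comparison without a difference beyond the spread. *H19* was then at 33.5% ± 2.65 and 32.6% ± 4.15 in the control-F1 and ICSI-F1 groups, *Meg3* at 12.98% ± 15.3 and 9.13% ± 6.46, *Rasgrf1* at 1.64% ± 0.715 and 1.21% ± 0.759, and *Dio3* at 1.88% ± 0.917 and 1.12% ± 0.842 (SD, n = 4 each). In the site-level logistic model, which could be fitted at 121 members that varied, 0 passed a false discovery rate of 0.05, as did 0% of the 196818 sites tested. At an unadjusted p under 0.05 there were 11 members (9.09%, against 7.06% of all sites), 2 higher and 9 lower in ICSI-F1 lines, 5 of them in *Meg3* and 6 in *Dio3*. The *Meg3* sites included those 209, 65, 59 and 38 bp upstream, where line 37 was the highest line, at 26.0% to 40.6%. Neighbouring cytosines share reads, so these are not separate observations. By limma on log2 ratios of methylated to unmethylated reads, 0 members passed the false discovery rate and 3 of 121 had an unadjusted p under 0.05 (2.48%, against 3.49% of all sites). Over the 142 members, 50 site means were higher and 70 lower in ICSI-F1 lines and 22 were equal, with a median difference of 0 percentage points against −0.205 over all sites. The matching counts over all sites are not given, and all promoters together also leaned lower (4109 higher, 5106 lower). Neighbouring cytosines are not independent, so the lean of the members is not read as a result about them.

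Few other genes of the same domains had promoter sites, whose means are given with CCGG included. In the *H19*-*Igf2* domain, 2 of 9 listed genes did, *Th*, which encodes tyrosine hydroxylase, at 98.1% from 1 site in a CCGG and *Syt8*, a synaptotagmin gene, at 97.4%. In the *Dlk1*-*Dio3* domain, *Begain* and *Ppp2r5c*, the gene of a regulatory subunit of protein phosphatase 2A, were at 5.57% and 6.69%, 2 of 10 listed. *Begain* was highest in line 45 and *Ppp2r5c* in line 44, so that neither followed the order of *Meg3*. In the *Rasgrf1* domain, *Adamts7*, a secreted metalloprotease gene, and *Tmed3* were at 13.3% and 1.18%, 2 of 6 listed. Of 22 listed imprinted genes from domains with methylation on the maternal copy, 4 had sites, at mean levels of 1.65% to 25.6%. These promoters need not be the methylated regions of their domains. The highest, *Trappc9*, had 3 sites, all in CCGG. Outside CCGG the other 3 genes were at 1.65% to 13.2%. No gene of these lists had an exact permutation p under 0.05 between the groups. The listed genes were 3 higher and 3 lower in ICSI-F1 lines in the paternal domains, and 1 higher and 3 lower in the maternal list. Over all promoters, 4109 were higher and 5106 lower, with a median difference of −0.161 percentage points. No site of another gene lay within 5 kb of a member site.

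By the correlation of the 8 line means, the promoters most like *Meg3* were *Rarres1* (r = 0.926), *Nicn1* (r = 0.834) and *C130026L21Rik* (r = 0.83), among 1202 compared. *Rarres1* spanned 9.18% to 18.7%, a narrower range than *Meg3*. The closest to *H19* was *Endod1* (r = 0.795, 99 compared), to *Rasgrf1* *Nfrkb* (r = 0.973, 6399 compared) and to *Dio3* *Mad2l1* (r = 0.991, 6361 compared). These correlations are descriptions over 8 lines that differ in library set and depth.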

How the data were processed

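RRBS libraries (1 per line, 8 lines) were made with an MspI-based kit and sequenced as paired 150 bp reads. Per the labels and methods, the authors trimmed with Trim Galore 0.5.0 and aligned to mm10 with Bismark 0.20.0, both in non-directional mode. They then used methylKit, 1.16.0 per the submitters' processing notes but an earlier version per the paper's methods. With it they scaled coverage between lines, dropped sites under 10 reads or above the 99.9 percentile, and joined sites covered in all lines with strands apart. The deposited coverage and methylated and unmethylated read numbers are therefore scaled whole numbers (a score) and not raw counts. Scaling factors recovered from the coverages gave unscaled reads, used for intervals and floors.

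Levels are methylated over methylated plus unmethylated scaled reads. Promoter means were compared by exact two-sided permutation of lines, adjusted over every promoter (Benjamini-Hochberg). A quasi-binomial logistic model was fitted to every varying site, with dispersion moderated by limma 3.58.1 (R 4.3.3). It was also run on simulated data, which had a single spread between lines and no difference between library sets. The outcome of that run is not given here. Because the values are scaled, its p-values are approximate. Sites at a mean of 80% or more were methylated, under 20% unmethylated and otherwise intermediate, and blocks are runs of 1 class. Named sites were block ends, the largest difference of each promoter, and sites past the 20-point rule with their neighbours. The others were named after their values were seen. Likeness named up to 3 promoters of at least 5 sites. The members, gene lists and germ cell markers were chosen with earlier results of these data known. Replicates are separate lines, and p-values measure the spread between them. CpG positions and sequences were read from GRCm38, and features from GENCODE. Scripts ran in Python 3.11.15 (pandas 2.3.3, scipy 1.17.1, pysam 0.24.0, numpy 2.4.6, matplotlib 3.10.9). Alternatives were read-weighted and median levels, coverage minimums of 20 and 30, summed strands, each library set alone or as a term, undone scaling, unmoderated dispersion, limma, other limits, and each line left out. Leaving out CCGG and the grouping of sites into runs at most 100 bp apart were chosen after seeing the data.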

Additional observations from a re-analysis of the deposited data

Results flagged for a closer look

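Control-F1 line 37 stood apart from the other 3 control-F1 lines in 4 of the 14 control-F1 groups of values examined with Dixon's test, which flags about 1 group in 20 by chance. The groups were promoter means and the runs within them, so they overlap, and the runs were set after the data were seen. The 4 of 14 can therefore not be set against that rate. Of the 14 ICSI-F1 groups, 0 had such a line. Its *Meg3* promoter mean was 40.3%, where the others had 11.1% to 15.0%. In the *Meg3* run 209 to 232 bp upstream it was at 27.8%, where the others had 0%. With the others at 0%, any level above 0% would have been flagged there. That flag therefore does not measure a distance, and the rate of 1 group in 20 does not hold for it. In the run 37 to 81 bp upstream line 37 was at 32.03%, where the others had 2.13% to 5.82%. In the *H19* stretch 22 to 100 bp upstream it was at 10.9% outside CCGG, where the others had 1.52% to 2.995%. That value came from 3 plus strand cytosines at 18.2%, each read 12 times, while their minus strand partners, read 58 times, were at 3.67%. The *Meg3* promoter mean includes the sites of both runs, so it is no separate observation.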

How the results depend on the processing

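No promoter difference had an exact p under 0.05 under any setting with a test, and each changed sign under some. For *H19*, the difference was 2.46 percentage points with at least 30 scaled reads, 0.554 with strands summed, 1.96 in library set 2, and −1.43 to 1.22 with 1 line left out. For *Meg3*, it was 4.29 in library set 2 and −5.23 to 4.68 with 1 line left out, the highest value without line 37. For *Rasgrf1*, it was 0.586 read-weighted, 0.556 as a median over sites, 0.972 and 0.637 with at least 20 and 30 scaled reads, 0.241 in library set 1, and −0.959 to 0.339 with 1 line left out. For *Dio3*, it was −0.424 as a median over sites, −0.257 in library set 2, −0.757 without CCGG, and −0.443 to 0.574 with 1 line left out. The number of members past the 20-point rule was 3 in library set 1 (2 higher, 1 lower), 0 in library set 2, 0 with strands summed, 0 without CCGG, and 1 to 2 with 1 line left out, with 2 without line 45. Shares over all sites are given for the main setting alone, so these counts cannot be set against the rest of the table. With fewer lines per group the rule is also easier to pass. The 22 blocks became 6 without CCGG and were 20 to 23 with 1 line left out. The 15 alternatives to the main logistic model, limma on log2 ratios among them, each called 0 members. Over all sites they called up to 80, with at least 30 scaled reads. The causes of these changes were not tested. Depth limits single levels, since the widest 95% Wilson intervals of single lines spanned 45.3 percentage points at a *Dio3* site and 41.1 at a *Meg3* site. No paired analysis was possible because the groups share no replicate number.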
